A study of Mus musculus with 12 samples.

Results

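Interferon-stimulated genes are the genes that cells switch on when an interferon binds its receptor. A set of 37 such genes was followed in mouse liver, with members taken by symbol from a fixed list of sensors, transcription factors, antiviral effectors, interferon-induced GTPases and a chemokine. For each member the probe set naming that gene alone was used, or the brighter one on average over the 12 arrays where there was a choice. This gave 33 measured members among 22180 genes on the array, and 30 of them were bright enough to test, among 14031 tested genes. Mx1, Gbp6 and Trim30a were dim. Oas1a, Dtx3l and Gbp2 were covered only by probe sets that also name another gene, and Ifi44 had no probe set listed.

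Total RNA of 12 livers was hybridised to Affymetrix Mouse Gene 2.0 ST arrays, which carry short DNA probes along the length of each transcript. All mice were male and on a C57BL/6 background. Their stated age of 8 to 10 weeks must precede the 16 weeks of feeding, so the livers came from older mice. The 4 groups, with 3 arrays each, were Pparβ/δ-/- mice (called null here) on a liquid diet with 4% v/v ethanol, null mice on the liquid control diet, wild-type mice on the ethanol diet and wild-type mice on the control diet. Feeding lasted 16 weeks after a week of control diet for every mouse, and 10 mice were fed per group. PPARβ/δ is a nuclear receptor that controls genes of lipid and glucose metabolism. The null mice lack it in every cell, so the design asks how its loss and chronic ethanol, alone and together, change liver RNA. The labels do not say that each array is a separate mouse. The p-values here therefore reflect only how far samples spread within groups, pooled over the 4 groups and moderated over the tested genes. Genes near the targeted locus, or other segments of donor-strain DNA in the null line, cannot be told apart from the loss of PPARβ/δ in any difference between genotypes.

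Type I interferons bind the receptor IFNAR, whose kinases JAK1 and TYK2 phosphorylate transcription factors, STAT2 among them. A complex that holds STAT2 and IRF9 then binds a DNA element called the interferon-stimulated response element (ISRE), found before the start of many of the genes described here. Interferon-γ has a receptor of its own and acts through the GAS element, turning on many of the GTPases. Hepatocytes, Kupffer cells (the macrophages of the liver) and sinusoidal endothelial cells all carry these receptors, and a low level of the genes is kept up without infection. In whole liver, fewer cells of a type and less RNA per cell cannot be told apart.

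The promoters show how far the members share the element that the pathway acts through. RefSeq promoter windows of GRCm38.p6, from 250 bases before to 50 bases after the gene start, were at hand for 27 of the 37 members. The ISRE core, 2 copies of GAAA set 2 bases apart and searched on both strands, was in the window of 16 of these 27 members (59.3%). It was in the windows of 1079 of all 27025 genes (3.99%). The GAS core, TTC and GAA set 3 bases apart, was in 5 of the 27 member windows (18.5%), against 9.55% of all genes. Overlapping matches were kept in both searches. The stretches below hold the ISRE core, in capitals on either strand, of members that recur in the results. A match is a description of these letters, not a shown binding site.
Isg15, chr4:156200860-156200911, minus strand: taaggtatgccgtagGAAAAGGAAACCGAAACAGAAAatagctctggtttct
Ifit1, chr19:34640770-34640828, plus strand: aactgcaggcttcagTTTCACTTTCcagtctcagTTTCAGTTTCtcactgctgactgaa
Igtp, chr11:58199507-58199546, plus strand: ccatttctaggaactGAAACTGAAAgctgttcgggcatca
Irgm1, chr11:48871420-48871465, minus strand: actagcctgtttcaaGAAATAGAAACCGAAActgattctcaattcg
Gbp3, chr3:142559984-142560029, plus strand: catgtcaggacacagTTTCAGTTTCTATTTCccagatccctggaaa
Oas3, chr5:120777710-120777749, minus strand: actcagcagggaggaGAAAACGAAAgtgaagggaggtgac
Cxcl10, chr5:92349078-92349117, minus strand: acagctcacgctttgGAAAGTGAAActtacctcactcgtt
Isg15 had 3 overlapping matches, from 78 to 57 bases before its start, and Irgm1 and Gbp3 had 2 overlapping matches each. Ifit1 had 2 separate matches, and the Cxcl10 match lay 213 to 204 bases before the start.

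Herc6, the member with the clearest difference between genotypes, had neither core in its window. The whole 300-base window is shown for that reason, in lower case throughout.
Herc6, chr6:57580742-57581041, plus strand: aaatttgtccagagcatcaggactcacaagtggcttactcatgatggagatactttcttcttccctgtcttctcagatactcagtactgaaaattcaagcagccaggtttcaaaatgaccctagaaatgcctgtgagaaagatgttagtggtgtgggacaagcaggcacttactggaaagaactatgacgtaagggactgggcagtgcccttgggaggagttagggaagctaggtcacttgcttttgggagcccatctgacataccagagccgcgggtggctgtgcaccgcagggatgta
The absence of these letters says nothing of the factors that bind elsewhere. Zbp1, Parp9, Parp14, Rtp4, Oas2, Usp18, Mx1, Mx2, Gbp6 and Iigp1 had no window in the table.

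The arrays were alike in overall signal, with medians between 5.55 and 5.62 on the log2 intensity scale. All 8 hepatocyte markers passed the filter, and Cps1 averaged 13.3 in null ethanol livers, 13.4 in null control livers, 13.5 in wild-type ethanol livers and 13.5 in wild-type control livers, so the tissue label held. Neutrophil markers were dim for 5 of 8 genes, and T and NK cell markers for 4 of 9. Ppard, the targeted gene, read 7.88, 7.93 and 8.06 in null ethanol livers and 7.69, 7.91 and 7.91 in null control livers. It read 7.96, 7.77 and 7.85 in wild-type ethanol livers and 7.64, 8.01 and 7.68 in wild-type control livers. The probe set did not separate the genotypes, and which exons it covers relative to the deleted part was not analysed here, so it checks no label.

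One array stood apart for the members, and values below that moved by over 1.5 times without it are given both ways. The library labelled wild-type control 2 was the highest of the 12 arrays for 22 of the 30 tested members, against 7.02% of all tested genes. It lay above both other wild-type controls for 26 of 30 members, against 32.6% of all tested genes, by a median of 0.54 on the log2 scale over their mean. The members furthest above were Cxcl10 by 1.68, Igtp by 1.58, Ifit1 by 1.43, Gbp3 by 1.29 and Usp18 by 1.18. Cxcl10 encodes the chemokine that draws CXCR3-bearing T cells. Igtp, an immunity-related GTPase, read 10.44 on that array and 9.04 and 8.66 on the other wild-type controls. Eif2ak2 and Parp9 were the members not raised there, at 0.08 and 0.10 below the mean of the other wild-type controls. Their values were 7.25 and 8.77 on that array. The 15 Kupffer cell and macrophage markers were not highest on it, with a median deviation of 0.26 from each gene's mean over the 12 arrays. At the low end, null ethanol 3 was the lowest array for 14 of 30 members, against 18.8% of all tested genes, with a median deviation of -0.50. The median over members, array by array, was -0.24, -0.04 and -0.50 in null ethanol livers and 0.15, -0.10 and 0.01 in null control livers. It was -0.19, 0.06 and 0.09 in wild-type ethanol livers and 0.12, 0.61 and 0.01 in wild-type control livers. These groups averaged -0.26 ± 0.23, 0.02 ± 0.13, -0.01 ± 0.15 and 0.24 ± 0.32 (SD, n = 3 each).

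**Figure D1:**
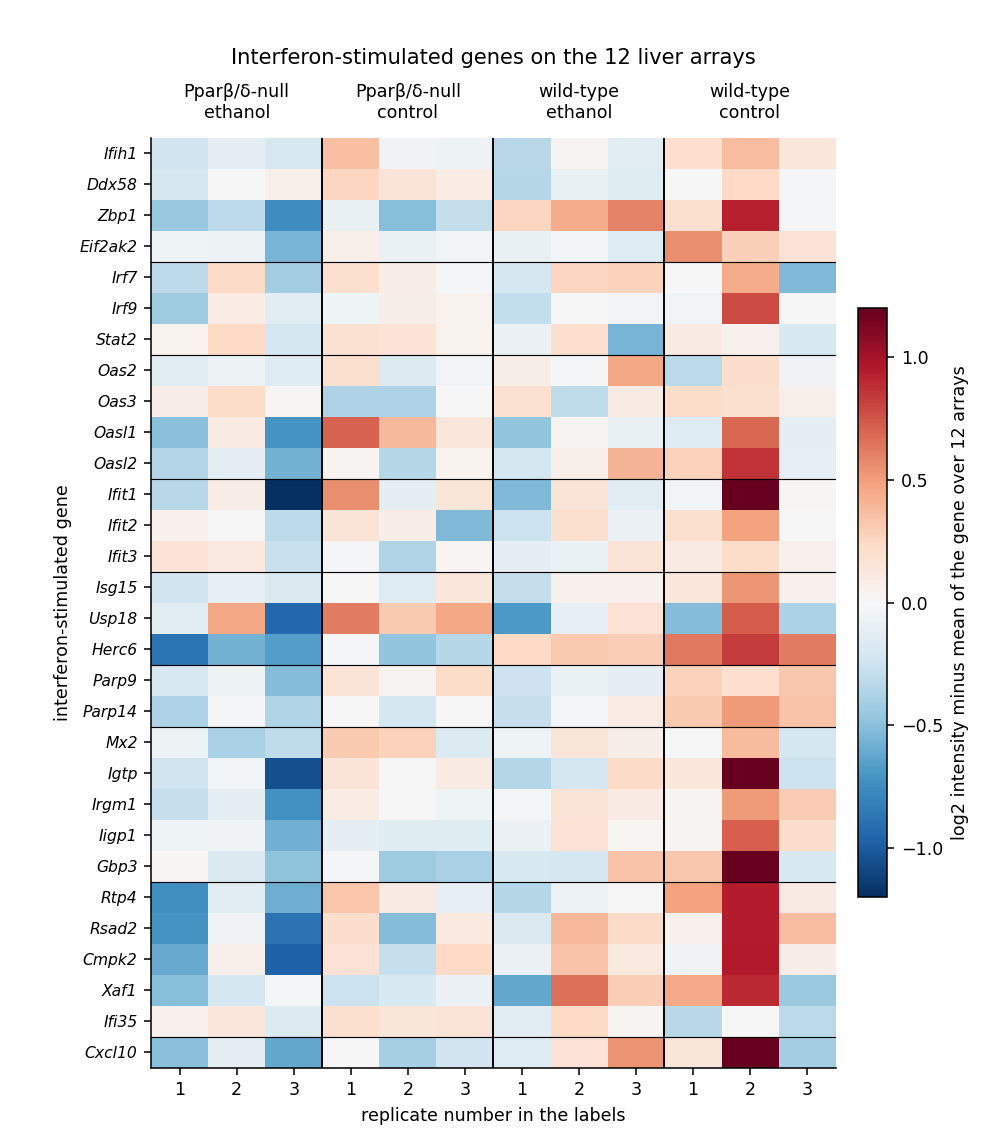
Level of the 30 tested interferon-stimulated genes (rows, ordered by role) on the 12 arrays (columns, by group and replicate number). Colour is log2 intensity minus the gene's own mean over the 12 arrays, with the scale ending at 1.2 in either direction. Wild-type control 2 is red for 29 of the 30 members, and null ethanol 3 is the lowest array for 14.

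**Figure D2:**
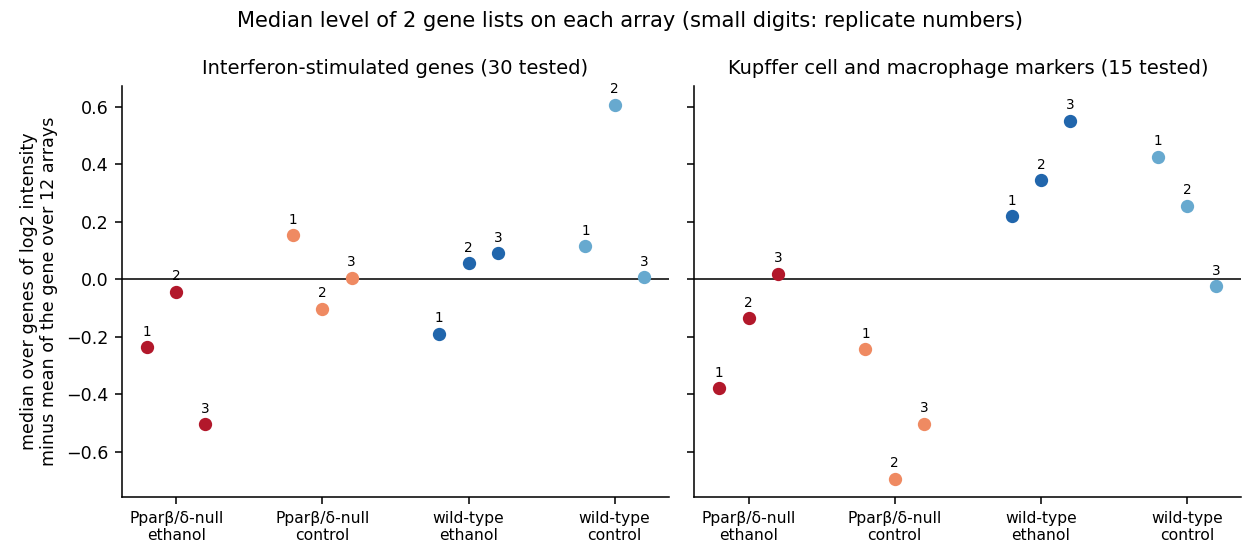
Median over genes of log2 intensity minus each gene's mean over the 12 arrays, for each array, with the groups on the x axis and replicate numbers beside the points. Among the 30 interferon-stimulated genes (left) wild-type control 2 stands at 0.61, above every other array. Among the 15 Kupffer cell and macrophage markers (right) it stands at 0.26, inside the range of the wild-type arrays.

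The loss of PPARβ/δ went with lower RNA of a few members, most clearly Herc6 and Zbp1. Averaged over the diets, Herc6 was 1.97-fold lower, Zbp1 1.75-fold lower and Parp14 1.25-fold lower in null than in wild-type livers. These were the 3 members called of 30, all lower, with limma's moderated test at a Benjamini-Hochberg adjusted p under 0.05. In the same comparison 7.0% of all tested genes were called, and 3.98% were called lower. Gbp3 passed the filter on dim genes through 3 wild-type arrays and 0 null arrays, so its lower null value is in part fixed by the filter. It is among the members counted here and in the genotype counts and medians for each diet below. Thus 10.0% of the members were called, close to the 7.0% of all genes called in either direction. All 3 were lower, a direction in which 3.98% of all genes were called, and the difference in shares was not tested. A further 22 members were below 0 without passing the test, and the median over members was -0.21 on the log2 scale, against a median of 0.00 over all genes (50.1% below 0). With wild-type control 2, left out, Herc6 and Zbp1 were called, 24 of 30 members were below 0 and the median was -0.13, while 9.36% of all genes were called and 51.5% were below 0.

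Herc6 is the main ligase that joins the ubiquitin-like protein ISG15 to other proteins in mice. Its log2 intensity was 7.07, 7.38 and 7.29 in null ethanol livers, 7.93, 7.48 and 7.61 in null control livers, 8.18, 8.26 and 8.25 in wild-type ethanol livers, and 8.58, 8.78 and 8.56 in wild-type control livers. Every null array lay below every wild-type array, which held for 2.11% of all tested genes in that direction. The change averaged over the diets was -0.98 ± 0.09 (SE) on the log2 scale, with limma's adjusted p of 1.6e-05. On the ethanol diet alone it was -0.99 ± 0.12 with an adjusted p of 0.000785, and on the control diet -0.97 ± 0.12 with an adjusted p of 0.000705. The difference remained called in all 12 fits that left out 1 array, at -1.04 to -0.93 averaged over the diets. Among the 20 tested genes that flank Herc6 on the chromosome, 10 on each side, 2 were called, namely Ppm1k lower by -0.39 and Herc3 higher by 0.34 on the log2 scale. Over both diets 7.0% of all tested genes were called.

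Zbp1 senses left-handed nucleic acid and can trigger necroptosis, a form of inflammatory cell death. It read 6.57, 6.72 and 6.28 in null ethanol livers and 6.94, 6.52 and 6.75 in null control livers. It read 7.29, 7.47 and 7.63 in wild-type ethanol livers and 7.22, 7.96 and 7.02 in wild-type control livers. Again no null array reached any wild-type array. The log2 change averaged over the diets was -0.80 ± 0.15 (SE), with limma's adjusted p of 0.00552, and it was called in all 12 fits that left out 1 array (-0.90 to -0.66). On the ethanol diet it was -0.94 ± 0.21 with an adjusted p of 0.0373, a call lost in 6 of those fits, each lacking 1 of the null ethanol or wild-type ethanol arrays (adjusted p up to 0.153). On the control diet it was -0.67 ± 0.21 with an adjusted p of 0.0789, and -0.39 without wild-type control 2. Of 20 flanking tested genes 2 were called over both diets, Ctcflos lower by -1.03 and Npepl1 higher by 0.33, beside 7.0% of all tested genes.

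Parp14 is an ADP-ribosyltransferase that shapes macrophage responses to interferon-γ. It read 7.64, 8.00 and 7.65 in null ethanol livers, 8.01, 7.81 and 8.03 in null control livers, 7.74, 8.00 and 8.10 in wild-type ethanol livers, and 8.33, 8.53 and 8.36 in wild-type control livers. The wild-type controls stood above all 9 other arrays, while the remaining groups overlapped. The averaged log2 change of -0.32 ± 0.09 had an adjusted p of 0.0454 and was called in 2 of the 12 fits that left out 1 array. The fits that lost it each lacked a null control, a wild-type control, null ethanol 1 or 3, or wild-type ethanol 2 or 3 (adjusted p up to 0.114). On the control diet the change was -0.46 ± 0.12 (adjusted p = 0.0518), and on the ethanol diet -0.18 ± 0.12 (adjusted p = 0.508).

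**Figure D3:**
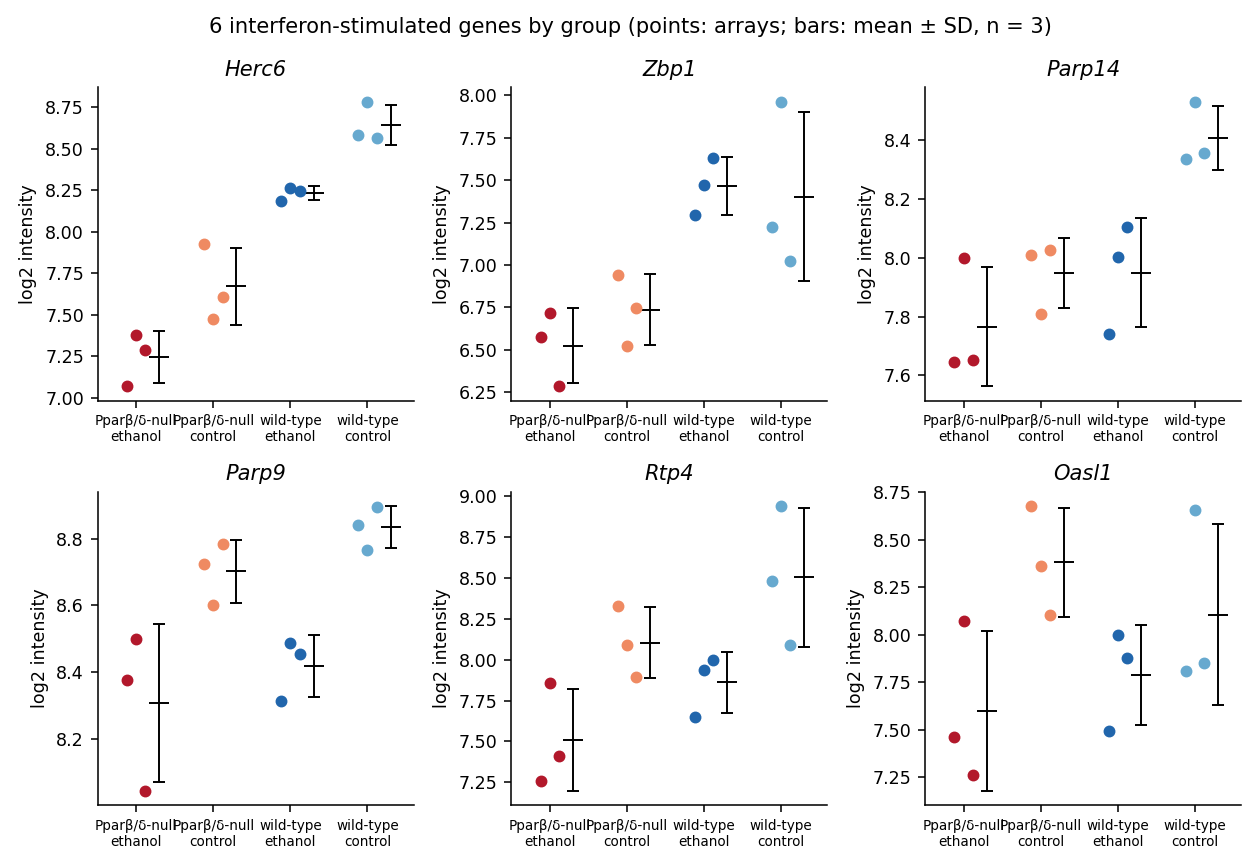
Log2 intensity of 6 interferon-stimulated genes by group, with 1 point per array and bars for the mean ± SD (n = 3); axes do not start at 0. The null arrays of Herc6 and Zbp1 all lie below the wild-type arrays. For Parp9 all 6 ethanol arrays lie below all 6 control arrays.

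On the control diet alone, Herc6 was the 1 member called lower of 30 and none was called higher, while 5.10% of all tested genes were called and 1.89% were called lower. Of the 30 members 22 were below 0, with a median of -0.28 and a range of -0.97 to 0.52, against 48.1% of all genes below 0. The 450 genes called higher and 265 called lower became 290 and 445 after each array was centred on the median of its tested genes. In 7 members all 3 null arrays lay below all 3 wild-type arrays, which was so for 10.0% of all genes. These were Oas3, Zbp1, Ifit3, Parp14, Iigp1, Eif2ak2 and Herc6. Ifi35, an interferon-induced leucine zipper protein, was the member whose null arrays all lay above the wild-type ones, as for 14.6% of all genes. Its values were 9.10, 9.05 and 9.06 in null control livers against 8.58, 8.90 and 8.58 in wild-type control livers. The log2 change of Ifi35 was 0.38 ± 0.12 with an adjusted p of 0.0835. A second, dimmer probe set of Ifi35 was not higher, averaging 6.45 in null control livers against 6.50 in wild-type control livers. Without wild-type control 2 the change of the brighter probe set was 0.49 and called (adjusted p = 0.0277). Herc6 was still called at -0.90 in that fit, and 9.29% of all genes were called. The members' median then was -0.13, with 18 of 30 below 0, against 50.9% of all genes.

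On the ethanol diet alone, Herc6 and Zbp1 were the 2 members called, both lower, while 1.79% of all tested genes were called and 1.33% were called lower. There were 26 of 30 members below 0, with a median of -0.23, against 54.5% of all genes. This median was -0.08 without null ethanol 3, and -0.16 and -0.15 without wild-type ethanol 2 and 3. The 64 genes called higher and 187 called lower became 107 and 122 after the median centring. Irgm1, an immunity-related GTPase that regulates the others of its family, had the next smallest p. It read 7.21, 7.37 and 6.75 in null ethanol livers against 7.46, 7.64 and 7.58 in wild-type ethanol livers, with no overlap. Its difference of -0.45 ± 0.15 had an adjusted p of 0.157, and it was -0.27 without null ethanol 3 (adjusted p = 0.395). Non-overlap in this direction was found for 5 members (Oas2, Zbp1, Mx2, Irgm1 and Herc6) and for 14.4% of all genes. Rsad2, or viperin, which makes a chain-terminating nucleotide, read 5.94, 6.61 and 5.77 in null ethanol livers against 6.48, 7.05 and 6.88 in wild-type ethanol livers (adjusted p = 0.217). The control and ethanol comparisons use different arrays, and 20 of 30 members were below 0 in both, against 28.0% of all genes. Leaving out wild-type control 2 turned Ifit1 (0.21), Igtp (0.15), Irf9 (0.03) and Cmpk2 (0.02) above 0 on the control diet.

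**Figure D4:**
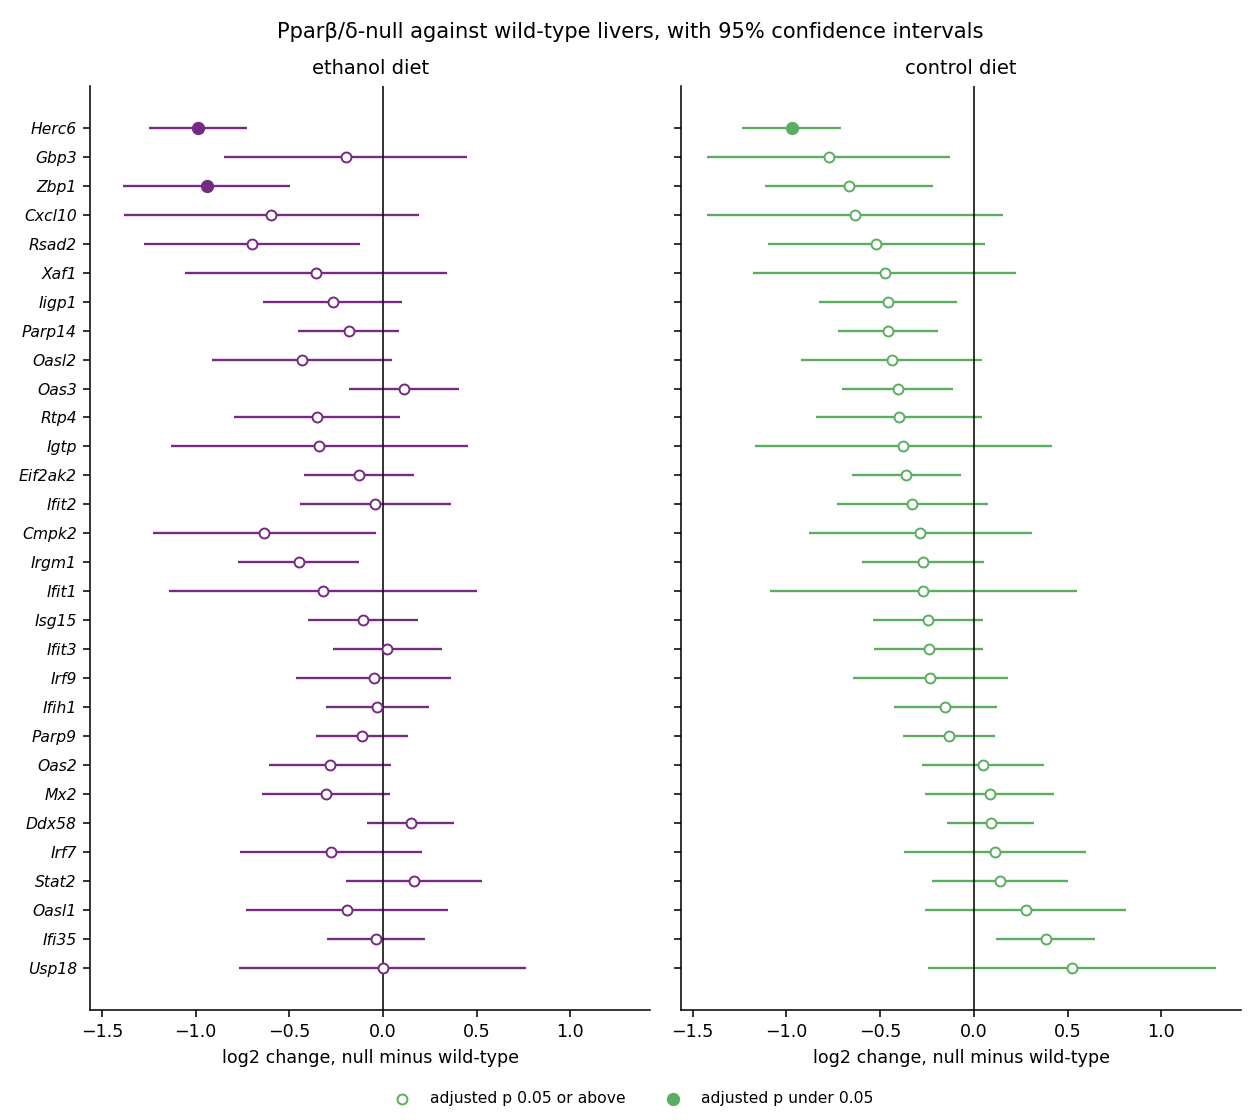
Log2 change of the 30 tested interferon-stimulated genes in null minus wild-type livers on the ethanol diet (left) and on the control diet (right). Points are estimates with 95% confidence intervals, filled where the adjusted p is under 0.05, and genes are ordered by the control diet change. Herc6 (both diets) and Zbp1 (ethanol diet) are filled.

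Ethanol went with slightly lower values of most members in both genotypes, and no member passed the test in either. In null livers 0 of 30 members were called by limma (7 at an unadjusted p under 0.05, of which 6 lower), while 0.00713% of all genes, or 1 gene, were called and 12.2% had an unadjusted p under 0.05. Of the 30 members 26 were below 0 with a median of -0.21, against 61.9% of all genes and a median of -0.05. In wild-type livers 0 of 30 members were called (8 at an unadjusted p under 0.05, all lower), while 0.0927% of all genes, or 13 genes, were called and 14.5% had such a p. Again 26 of 30 members were below 0, with a median of -0.27, against 51.3% of all genes and a median of -0.01. With array weights 2 members, Eif2ak2 and Parp9, were called lower in wild-type livers, while 5.93% of all genes were then called. These comparisons share no array, and 22 of 30 members were below 0 in both, against 29.9% of all genes. Leaving out wild-type control 2 turned Cxcl10 (0.32), Usp18 (0.25), Mx2 (0.16), Cmpk2 (0.11) and Xaf1 (0.11) above 0 in wild-type livers. In that fit Parp9, Eif2ak2, Parp14, Herc6 and Ifih1 were lower at limma's unadjusted p under 0.05. Ifi35 (0.37) and Oas2 (0.35) were higher at such a p, so not all were lower there. The share of all genes at such a p in that fit is not given here. Centring each array on the median of its tested genes moved the median of all genes by 0.11 in null livers. The members' median was then -0.10, and it stayed 0.17 below that of all genes, as in the uncentred values. Without wild-type control 2 the members' median in wild-type livers was -0.09, with 21 of 30 below 0 and 0 called, while 52.9% of all genes were below 0 and 5.77% were called; without wild-type ethanol 1 it was -0.17.

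Parp9 had the smallest p of the members for ethanol averaged over genotypes. Its product works with the ubiquitin ligase DTX3L in interferon signalling and DNA repair. It read 8.38, 8.50 and 8.05 in null ethanol livers against 8.72, 8.60 and 8.78 in null control livers. It read 8.32, 8.49 and 8.46 in wild-type ethanol livers against 8.84, 8.77 and 8.89 in wild-type control livers. All 6 ethanol arrays lay below all 6 control arrays, as for 0.456% of all genes. The change was -0.39 ± 0.11 in null livers (adjusted p = 0.293), -0.41 ± 0.11 in wild-type livers (adjusted p = 0.143) and -0.40 ± 0.08 averaged (adjusted p = 0.113). Without wild-type control 2 the averaged change was -0.42 and was called (adjusted p = 0.0364), as was Herc6 at -0.38 (adjusted p = 0.0497), beside 2.09% of all genes. Over all 12 arrays 0 of 30 members were called for ethanol averaged over genotypes by limma (11 at an unadjusted p under 0.05, all lower), beside 0.0143% of all genes called and 12.1% at such a p. With array weights 1 member, Parp9, was called, beside 0.948% of all genes. The probe set shared by Dtx3l and Parp9 averaged 8.72 in null ethanol livers against 8.87 in null control livers, and 8.75 in wild-type ethanol livers against 9.04 in wild-type control livers.

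Rtp4 encodes an interferon-induced protein that helps bring some receptors to the cell surface. It read 7.26, 7.86 and 7.41 in null ethanol livers against 8.33, 8.09 and 7.89 in null control livers. It read 7.65, 7.94 and 8.00 in wild-type ethanol livers against 8.48, 8.94 and 8.09 in wild-type control livers. The diets did not overlap within either genotype, and the averaged log2 change was -0.62 ± 0.14 (adjusted p = 0.188). Herc6, with values above, was at -0.43 ± 0.12 with ethanol in null livers (adjusted p = 0.293) and at -0.41 ± 0.12 in wild-type livers (adjusted p = 0.166). Oasl1, an OAS-like protein that curbs the translation of Irf7, read 7.46, 8.07 and 7.26 in null ethanol livers against 8.68, 8.36 and 8.10 in null control livers. Its change there was -0.78 ± 0.25 (adjusted p = 0.293). In wild-type livers it read 7.50, 8.00 and 7.88 on ethanol against 7.81, 8.65 and 7.85 on the control diet, which overlapped. Groups did not overlap, with ethanol lower, for 9 members in null livers (13.0% of all genes) and for 7 in wild-type livers (8.61% of all genes). Herc6, Parp9, Rtp4, Ifih1 and Ddx58 were among them in both genotypes. The share of all genes with this in both genotypes is not given here, so no conclusion is drawn from it.

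**Figure D5:**
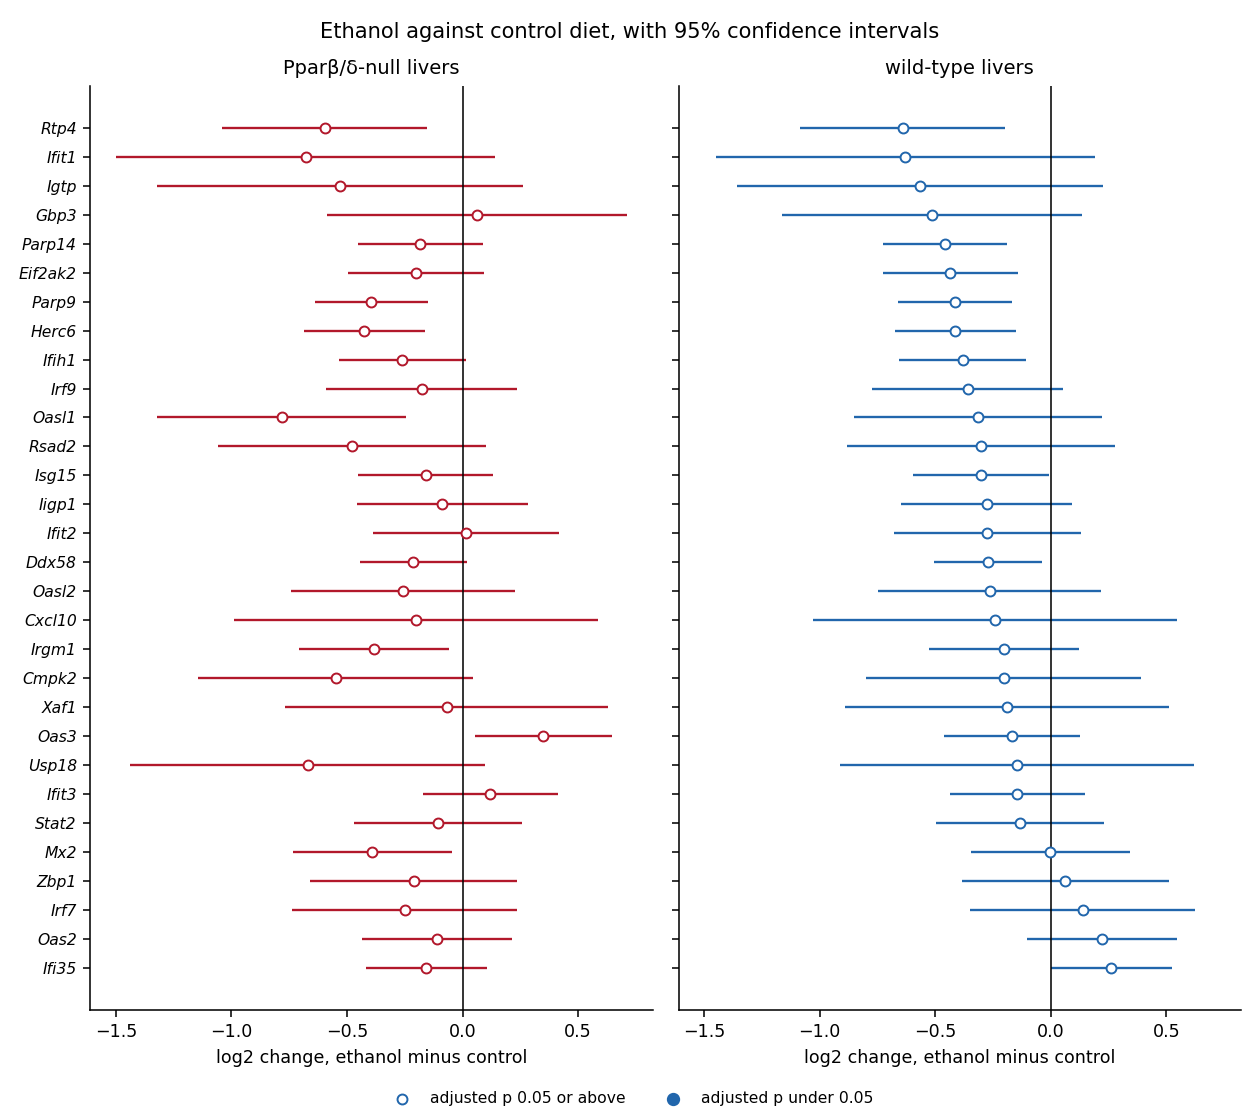
Log2 change of the 30 tested interferon-stimulated genes with ethanol minus control diet in null livers (left) and wild-type livers (right). Points are estimates with 95% confidence intervals, and genes are ordered by the wild-type change. In each panel 26 of 30 points are below 0 and none has an adjusted p under 0.05.

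The ethanol change did not pass a test of difference between the genotypes for any member. The interaction, the ethanol change in null livers minus that in wild-type livers, was called by limma for 0 of 30 members (2 at an unadjusted p under 0.05), beside 0.0143% of all genes called and 15.0% at such a p. Its median over members was 0.03, with 12 of 30 below 0, against 56.0% of all genes. Without wild-type control 2 the median was -0.17, with 22 of 30 below 0 (52.8% of all genes) and again 0 called (0.599% of all genes). It was also below 0 without null control 2 (-0.02), null ethanol 2 (-0.10) or wild-type ethanol 1 (-0.07). Leaving out wild-type control 2, limma's unadjusted p was under 0.05 for Ifi35 (-0.53), Mx2 (-0.55) and Zbp1 (-0.56). Such a p was also reached there by Oasl1 (-0.74), Oas3 (0.50) and Oas2 (-0.46). Ifi35 and Oas3 were the 2 members with such a p on all arrays. The share of all genes at such a p in the fit without wild-type control 2 is not given here. In that fit the adjusted p of these members was 0.12 to 0.236. Oas3, a synthetase of the 2-5A messenger that activates RNase L, had the smallest p with all arrays. It read 6.54, 6.69 and 6.48 in null ethanol livers against 6.09, 6.09 and 6.47 in null control livers, ethanol being higher without overlap, as for 5.59% of all genes. It read 6.65, 6.16 and 6.56 in wild-type ethanol livers against 6.69, 6.66 and 6.53 in wild-type control livers, which overlapped. The Oas3 interaction was 0.52 ± 0.19 with an adjusted p of 0.257. Ifi35 read 8.96, 9.04 and 8.74 in null ethanol livers and 8.77, 9.14 and 8.94 in wild-type ethanol livers, with its control values given above, and its interaction was -0.42 ± 0.17 (adjusted p = 0.283). Mx2, of the dynamin-like GTPase family, read 5.69, 5.36 and 5.44 in null ethanol livers against 6.06, 6.02 and 5.59 in null control livers. It read 5.70, 5.90 and 5.82 in wild-type ethanol livers against 5.75, 6.13 and 5.54 in wild-type control livers. Its interaction was -0.39 ± 0.23 (adjusted p = 0.427).

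Among the sensors Zbp1 was the member called for genotype. Ifih1 (MDA5) and Ddx58 (RIG-I), which detect viral RNA in the cytoplasm, had log2 differences of -0.03 and 0.15 in null against wild-type livers on ethanol (adjusted p = 0.934 and 0.541). Their ethanol differences averaged over genotypes were -0.32 and -0.24 (adjusted p = 0.237 and 0.268). Eif2ak2 (PKR), a kinase that halts translation on sensing double-stranded RNA, read 6.91, 6.90 and 6.41 in null ethanol livers against 7.02, 6.88 and 6.92 in null control livers. It read 6.87, 6.92 and 6.80 in wild-type ethanol livers against 7.52, 7.25 and 7.14 in wild-type control livers, so the wild-type control arrays were the 3 highest. Its genotype change on the control diet was -0.36 (adjusted p = 0.14).

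None of the 3 transcription factors of the pathway was called. Irf7, Irf9 and Stat2 had log2 differences of -0.08, -0.14 and 0.15 in null against wild-type livers over both diets (adjusted p = 0.824, 0.606 and 0.503). Leaving out wild-type control 2 gave 0.04 for Irf7, with the sign turned, and -0.01 for Irf9 (adjusted p = 0.904 and 0.97). Stat2 read 9.08, 9.28 and 8.83 in null ethanol livers, 9.23, 9.21 and 9.08 in null control livers, 8.97, 9.24 and 8.48 in wild-type ethanol livers, and 9.14, 9.09 and 8.86 in wild-type control livers, and the 4 groups overlapped. Irf9 read 9.64 on wild-type control 2, against 8.83 and 8.86 on the other wild-type controls.

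In the ISG15 system, Isg15 itself and its protease Usp18, which also blocks the interferon receptor, were not called. Isg15 averaged 5.69 ± 0.07 in null ethanol livers, 5.85 ± 0.15 in null control livers, 5.79 ± 0.20 in wild-type ethanol livers and 6.09 ± 0.26 in wild-type control livers (SD, n = 3 each). Its genotype difference over both diets was -0.18 ± 0.10 (adjusted p = 0.317), and -0.10 without wild-type control 2 (adjusted p = 0.49). Usp18 averaged 8.34 ± 0.70 in null ethanol livers, 9.01 ± 0.15 in null control livers, 8.34 ± 0.44 in wild-type ethanol livers and 8.49 ± 0.68 in wild-type control livers. Its genotype difference was 0.26 ± 0.25 (adjusted p = 0.606), and 0.46 without wild-type control 2 (adjusted p = 0.232). The differences between these changes and that of Herc6 were not tested.

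The 3 tested IFIT genes, whose products bind viral RNA ends and block translation, gave no call. Ifit1 ranged from 6.06 to 8.69 over the 12 arrays. Its genotype change on the control diet was -0.27 with all arrays and 0.21 without wild-type control 2 (adjusted p = 0.723 and 0.738). Ifit2 and Ifit3 were at -0.18 and -0.11 over both diets (adjusted p = 0.465 and 0.559), and at -0.12 and -0.09 without wild-type control 2. Among the OAS family, Oasl2 had the lowest genotype value over both diets, at -0.44 (adjusted p = 0.124), and Oasl1 the highest, at 0.04 (adjusted p = 0.926). They were at -0.30 and 0.18 without wild-type control 2. The probe set shared by Oas1a and Oas1g averaged 4.53 in null ethanol livers, 4.69 in null control livers, 4.51 in wild-type ethanol livers and 4.81 in wild-type control livers.

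All 5 tested GTPases were below 0 in null against wild-type livers over both diets, with a median of -0.36, and none was called. Gbp3, which passed the filter through wild-type arrays alone, is 1 of the 5, and the other 4 had the same median. Leaving out wild-type control 2, the median of those 4 was -0.18. Iigp1, which attacks the vacuoles of intracellular parasites, read 11.26, 11.27 and 10.73 in null ethanol livers and 11.19, 11.17 and 11.16 in null control livers. It read 11.24, 11.49 and 11.33 in wild-type ethanol livers and 11.34, 12.03 and 11.53 in wild-type control livers, and its averaged change was -0.36 ± 0.12 (adjusted p = 0.0957). Gbp3, a guanylate-binding protein, was at -0.78 on the control diet with all arrays (adjusted p = 0.151) and at -0.35 without wild-type control 2 (adjusted p = 0.337). The probe set shared by Gbp2 and Gbp2b averaged 6.34 in null ethanol livers, 6.50 in null control livers, 6.95 in wild-type ethanol livers and 7.31 in wild-type control livers. Mx1 read 3.95, 4.14 and 4.03 in null ethanol livers, 4.08, 3.80 and 4.20 in null control livers, 4.03, 4.41 and 4.58 in wild-type ethanol livers, and 4.57, 4.44 and 3.71 in wild-type control livers. Gbp6 was lower still, between 3.0 and 4.16 on the 12 arrays, so both were too dim to rank the groups. Trim30a, a dim member that restrains Toll-like receptor signalling, was at 4.27 to 5.07 on null arrays and 4.88 to 5.97 on wild-type arrays.

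Of the other effectors, Rsad2 and its chromosomal neighbour Cmpk2, a mitochondrial nucleotide kinase, were below 0 in null livers over both diets by -0.61 and -0.46 (adjusted p = 0.0733 and 0.189), and by -0.49 and -0.30 without wild-type control 2. Xaf1, a pro-apoptotic partner of XIAP, varied from 6.19 to 7.70 over the arrays, and its difference was -0.42 (adjusted p = 0.32), or -0.27 without wild-type control 2. Cxcl10 was at -0.62 ± 0.26 (adjusted p = 0.183) with all arrays and at -0.34 without wild-type control 2 (adjusted p = 0.19).

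Cell type markers were set beside these values. All 15 Kupffer cell and macrophage markers were below 0 in null against wild-type livers over both diets, with a median of -0.52, and 14 of them were called lower. Cd5l, a protein secreted by macrophages, averaged 9.23 in null ethanol livers, 8.76 in null control livers, 10.14 in wild-type ethanol livers and 9.73 in wild-type control livers, a change of -0.94 ± 0.12 (adjusted p = 0.000341). On the control diet 8 of the 15 were called lower and on the ethanol diet 1, Cd5l. The summed intensity of the markers was 5186 to 7326 in null ethanol livers, 4145 to 5752 in null control livers, 8099 to 10319 in wild-type ethanol livers and 6760 to 9775 in wild-type control livers. The same sum over the 33 measured members was 6779 to 9393, 9122 to 10152, 8233 to 10061 and 9663 to 14899 in these groups. With ethanol the macrophage markers lay above 0 for 14 of 15 genes in null livers (median 0.31) and 12 of 15 in wild-type livers (median 0.22), with 0 called, while most members lay below 0. Sinusoidal endothelial markers were below 0 in null livers for 9 of 10 genes, with Pecam1 and Tek called lower. The part of these cells in the members' values was not tested.

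The rest of the pathway was read from lists of other genes. Of 5 tested interferon genes (5 more were dim, Ifnb1 among them) 0 were called in any comparison. None of the 8 tested receptor and kinase genes was called with all arrays. Leaving out wild-type control 2, Jak2 was called lower with ethanol in wild-type livers (-0.54, limma's adjusted p = 0.0289), beside 5.77% of all genes called. Jak2 was then also called lower in null livers on the control diet (-0.56, adjusted p = 0.0163), beside 9.29% of all genes called. Irf3, the factor that turns on interferon genes after viral sensing, averaged 7.56 in null ethanol livers, 7.54 in null control livers, 7.86 in wild-type ethanol livers and 7.85 in wild-type control livers. Its change over both diets was -0.30 ± 0.06 (adjusted p = 0.00712), the only call among 8 tested STAT and IRF genes with all arrays. Stat3 changed by -0.40 with ethanol in wild-type livers, and by -0.61 without wild-type control 2, where it was called (adjusted p = 0.0239). Ifi204, a DNA sensor, was the only call among 14 sensing and adaptor genes, at -0.67 ± 0.15 (adjusted p = 0.0183). Nlrx1, a mitochondrial inhibitor of antiviral signalling, was the only call among 11 negative regulators, at 0.28 ± 0.07 (adjusted p = 0.0346). The values of Irf3, Ifi204 and Nlrx1 are for null against wild-type livers over both diets. In that comparison 7.0% of all tested genes were called, so single calls in lists of this size are near that share.

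A longer list of 68 other interferon-induced genes, 49 of them tested, was read in the same way. Over both diets 42 of 49 were below 0 in null livers with a median of -0.14, and 7 were called lower and 1 higher, while 50.1% of all genes were below 0 and 3.98% were called lower (7.0% in either direction). Irgm2, an immunity-related GTPase, averaged 8.33 in null ethanol livers, 8.69 in null control livers, 9.27 in wild-type ethanol livers and 9.95 in wild-type control livers, a change of -1.10 ± 0.24 (adjusted p = 0.0138). Gbp9 changed by -0.50 ± 0.06 (adjusted p = 0.000234) and Ifi205 by -0.85 ± 0.15 (adjusted p = 0.00473). Fcgr1, also called lower, stands in the macrophage list as well. Without wild-type control 2 the list had 6 genes called lower and 2 higher, and 35 of 49 below 0, against 9.36% of all genes called and 51.5% below 0. With ethanol 37 of 49 were below 0 in null livers and 38 in wild-type livers, with 0 called by limma, against 61.9% and 51.3% of all genes below 0. Without wild-type control 2 the wild-type count was 26, with Gbp9 and Nmi called lower, against 52.9% of all genes below 0 and 5.77% called.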

How the data were processed

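The 12 samples were grouped by the labels. The deposited values are 1 linear intensity per probe set and array (1.82 to 20156), which the authors normalised with RMA, per the submitters' processing notes. Neither its version nor the annotation build was given in the sources used here. Among the 41345 probe sets 23521 named 1 gene, 1814 several and 16010 none. RefSeq gave names, neighbouring genes and promoter windows.

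Here log2 was taken and genes above the 40th percentile of their array (5.61 to 5.71) on at least 3 arrays were kept, so a member high in 1 group alone could pass through that group. One mean per group was fitted with limma 3.58.1 in R 4.3.3 (8 residual and 4.95 prior degrees of freedom) for 7 contrasts: both diet effects, both genotype effects, their averages and the interaction. Each p was adjusted over the 14031 tested genes, never over the members. The number of arrays limits the precision. The fit was tested on simulated normal values for ethanol in null livers, drawn without an outlying array. It called 22 of 50 genes with a true log2 change of 0.5 and 48 of 50 with a change of 1. A member that was not called may thus still differ.

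Members given array by array were those called, those with the 3 smallest p per contrast and the 2 brightest and 2 dimmest; others were chosen after their values were seen. The members and all lists were chosen with earlier results of these data known. Alternatives were each array left out, other filters, scalings, probe set means, an offset, variance models, array weights, groups fitted alone and a replicate block.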

Additional observations from a re-analysis of the deposited data

How the results depend on the processing

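Herc6 was called lower in null livers on each diet and averaged, and Zbp1 averaged, under every alternative run. The Zbp1 call on the ethanol diet was lost with median centring (adjusted p = 0.0597), with no filter on dim genes (0.0661), with the replicate block (0.0529) and in 6 of the 12 fits that left out 1 array. The averaged Parp14 call was lost with the same 3 settings (0.054, 0.0871 and 0.0559) and in 10 of those 12 fits. Null against wild-type on the control diet gave 1 called member, but 3 with array weights and 2 each with median centring, an offset of 16 before log2, quantile normalisation, a stricter filter, or a variance trend with robust fitting. On the ethanol diet it gave 2, but 1 with median centring, with no filter on dim genes and with the replicate block. Ethanol gave 0 in wild-type livers and averaged, but 2 and 1 with array weights. Leaving out 1 array gave 1 to 2 called members for genotype on either diet, 2 to 5 for genotype averaged, 0 to 2 for ethanol averaged, and 0 for the interaction and for ethanol within a genotype. The averaged genotype count was 5 without null ethanol 2, where Irgm1 (-0.43) and Rsad2 (-0.74) were called as well; Cxcl10 and Oasl2 were called without wild-type control 3, and Irgm1 without wild-type control 1. Over those fits the median member change ran from -0.38 to -0.09 for ethanol in wild-type livers, -0.30 to -0.17 in null livers, -0.33 to -0.15 averaged, -0.42 to -0.13 for genotype on the control diet, -0.33 to -0.08 on the ethanol diet, -0.26 to -0.13 averaged and -0.17 to 0.17 for the interaction. Over all genes, array weights called 1631 for genotype on the control diet (715 without weights), 829 on the ethanol diet (251), 1863 averaged (982), 832 for ethanol in wild-type livers (13), 9 in null livers (1), 133 averaged (2) and 38 for the interaction (2). With no filter 393 were called for genotype on the control diet, and with only the groups compared 226. For ethanol in wild-type livers 43 were called with the offset and 24 with the trend. The causes were not tested. Same-numbered arrays of different groups correlated at -0.15 to 0.19 (18 pairs, deviations from group means). Arrays with different numbers correlated at -0.15 to 0.21 (36 pairs), and 2 of 12 arrays correlated best with their own number. No pairing by number was seen, but so few arrays cannot exclude it. No called value changed sign. Mx1, Gbp6 and Trim30a were below the filter, which limits what can be read from them.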

Other observations

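Of 5 tested plasmacytoid dendritic cell markers, Ly6d was the 1 called for genotype over both diets and Bst2 had the smallest p for the interaction. Ly6d averaged 6.92 in null ethanol livers, 7.13 in null control livers, 6.48 in wild-type ethanol livers and 6.34 in wild-type control livers, a genotype change of 0.61 ± 0.15 on the log2 scale over both diets (limma's adjusted p = 0.0294). Bst2, or tetherin, which holds budding virus at the cell surface and is itself induced by interferon, had an interaction of -0.61 ± 0.17 that did not pass (adjusted p = 0.191). It averaged 9.27 in null ethanol livers against 9.43 in null control livers, and 9.47 in wild-type ethanol livers against 9.01 in wild-type control livers. Ifi35 had a second, dimmer probe set, which averaged 6.54 in null ethanol livers, 6.45 in null control livers, 6.55 in wild-type ethanol livers and 6.50 in wild-type control livers. Among the 20 tested genes flanking Parp14, 4 were called for genotype over both diets: Mylk at 0.38, Sema5b at 0.43, Pdia5 at -0.30 and Cd86 at -0.46. In that comparison, which also holds for the Ly6d call, 7.0% of all tested genes were called.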
